A study of Rattus norvegicus with 4 samples.

Results

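The genes described here are regulators of nephron development: Gfra1, Jag1, Notch2, Bmp7, Bmp4, Pax2, Pax8, Wt1 and Hnf4a. They were chosen by name, as factors of nephrogenesis that might carry an effect of treatment before birth, and every array probe set with such a symbol in the platform annotation was taken. That gave 11 probe sets for 8 of the 9 genes, out of 10411 named genes. No probe set carried the symbol Pax2, so Pax2 was not analysed here. Gfra1, Wt1 and Hnf4a had 2 probe sets each and the other 5 genes had 1.

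The RNA came from kidneys of male rats aged 9 weeks, 1 Affymetrix RAE-230A array for each of 4 groups. The groups were SHR nicotine, SHR saline, BN nicotine, then BN saline, and signals are given in that order throughout. SHR is the spontaneously hypertensive rat and BN the Brown Norway rat, both inbred, and the saline groups are the controls of the prenatal nicotine treatment. Each array carried a pool of 12 animals, or of 13 for SHR nicotine, so a group has no replicate and the spread between animals is not seen. The sources used here give neither the dose nor the days of treatment.

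A nephron forms when the ureteric bud, which branches toward the ligand GDNF through the receptor Ret and its co-receptor Gfra1, induces the mesenchyme around it. The induced cells need Pax2, Pax8 and Wt1 to become epithelium and Bmp7 to survive, and Notch2 with its ligand Jag1 directs them toward proximal fates. Nephron formation in the rat ends soon after birth, and in the adult kidney several of these genes stay on in particular cells: Wt1 in podocytes, Hnf4a in the proximal tubule, and Pax8 along the tubule.

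Of these genes 3 passed the strain test and 0 passed the nicotine test, both with limma. By probe set, 3 of 7 tested passed for strain, against 18.1% of all 7037 tested. For nicotine 0 of 7 passed, as did 0 of all 6924 tested. Bmp7 read lower in SHR than in BN, by 1.26-fold. Gfra1 and Jag1 read higher in SHR, by 1.56-fold and 1.54-fold, but were bright enough to be tested only through the SHR arrays. The call was kept in 6 of 12 alternative fits for Bmp7, 4 of 11 for Gfra1 and 1 of 11 for Jag1. Bmp4, Pax8 and Hnf4a were well measured and did not pass the strain test. Notch2 and Wt1 were too dim to test.

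RefSeq promoter windows are shown for Gfra1 and Jag1 because they are the genes that passed the strain test as higher in SHR. Both entered that test only through the SHR arrays. Each line gives the 250 bases before the start site, 5′ to 3′ on the gene's strand, in the GRCr8 build, which is a BN genome; SHR alleles were not analysed here. Gfra1 lies at chr1:267555812-267556061 and Jag1 at chr3:144894884-144895133, both on the minus strand. Capitals mark matches to any of 4 motifs searched on both strands: TGGGAA for the Notch effector RBPJ, the GC box GGGCGG, the TATA box TATAAA and the CCAAT box CCAAT.
Gfra1: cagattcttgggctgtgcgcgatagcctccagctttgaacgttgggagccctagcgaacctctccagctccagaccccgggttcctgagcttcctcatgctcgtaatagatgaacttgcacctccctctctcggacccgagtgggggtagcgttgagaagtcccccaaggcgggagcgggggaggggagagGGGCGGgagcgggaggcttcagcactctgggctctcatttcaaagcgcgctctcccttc
Jag1: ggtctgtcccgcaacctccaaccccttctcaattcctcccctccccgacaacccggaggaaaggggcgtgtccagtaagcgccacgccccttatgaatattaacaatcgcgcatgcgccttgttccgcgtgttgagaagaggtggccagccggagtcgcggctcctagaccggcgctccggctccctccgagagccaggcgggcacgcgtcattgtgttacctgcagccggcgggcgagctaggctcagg

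The Gfra1 window held 1 GC box, starting 59 bases before the start site, and none of the other motifs. The Jag1 window held none of the 4. Over 33360 windows of the same length, 30.5% held a GC box, 22.1% the RBPJ letters and 12.9% a TATA box, and 11351 windows held a CCAAT box. Both windows were rich in G and C, at 62.0% for Gfra1 and 64.4% for Jag1 against a median of 51.6%. A window was given in the same table for 8 of the 9 genes, all but Bmp7.

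The values are MAS5 signal intensities, whose scale is arbitrary, so probe sets are compared between arrays and never with each other. Before log2 was taken, any signal below 44.5 (the 40th percentile) was set to 44.5, called the floor here. A probe set was tested if the higher mean of the 2 strains (or of the 2 treatments, for nicotine) was at or above 89.0, which is 2 times the floor, and 7 of the 11 probe sets, covering 6 genes, met this limit. Gfra1 and Jag1 met it only through the SHR arrays, where they are high, so each had to differ in that direction to be tested for strain. In the nicotine test Jag1 met it only through the nicotine arrays, which fixed the direction of its nicotine difference. Just inside the limit was Jag1, with a higher strain mean of 110.0, and just outside was a Wt1 probe set with 62.1.

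**Figure D1:**
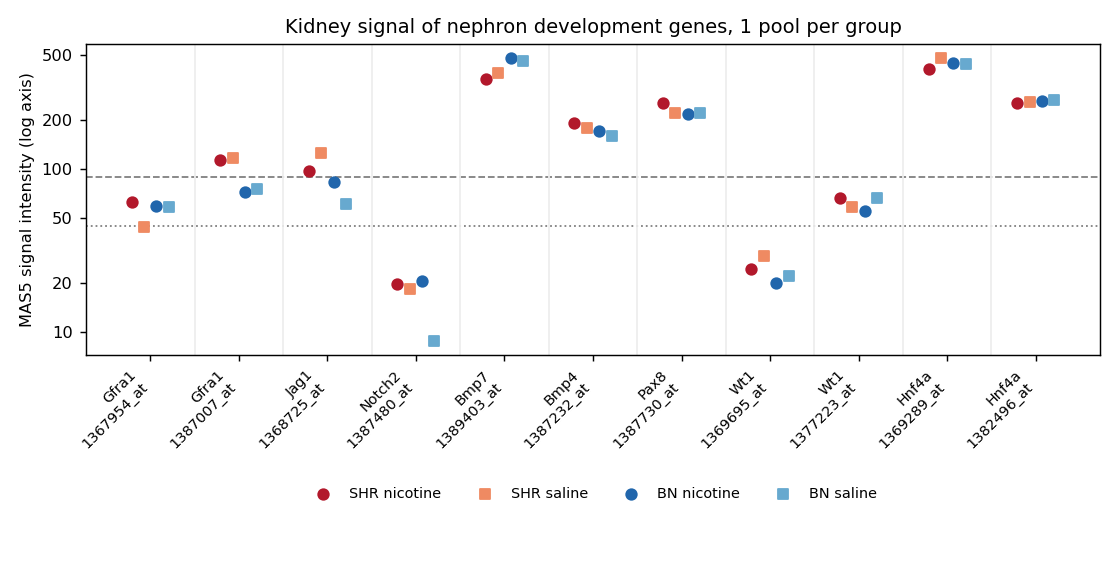
Signal of the 11 probe sets on the 4 arrays (vertical log axis; circles nicotine, squares saline; red SHR, blue BN; each point is 1 pool). The dotted line is the floor of 44.5 and the dashed line the limit of 89.0; the red points of Gfra1 1387007_at and Jag1 lie above the dashed line and the blue ones below it.

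Gfra1 encodes the membrane-anchored receptor that binds GDNF and presents it to Ret. The probe set that could be tested, 1387007_at, read 113.8 and 116.1 in the SHR pools and 71.8 and 75.5 in the BN pools. Both SHR arrays were above both BN arrays, and within each strain nicotine and saline nearly coincided. The log2 difference SHR minus BN was 0.64 (SE 0.17, 95% interval 0.29 to 0.999, adjusted p = 0.0123 with limma). The SHR reading was 1.54-fold the BN reading under saline and 1.58-fold under nicotine. The other Gfra1 probe set, 1367954_at, read 62.9, 44.3, 59.1 and 58.6 in the same order, under the limit on all 4 arrays, and there the strains overlapped and the nicotine pools read above the saline pools. The strain difference of Gfra1 thus rests on 1 of its 2 probe sets.

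Jag1 encodes a Notch ligand. It read 96.7 in SHR nicotine, 125.2 in SHR saline, 83.2 in BN nicotine and 61.2 in BN saline. The SHR arrays were the 2 highest, and the distance between strains was 2.04-fold under saline and 1.16-fold under nicotine. Averaged over treatments the log2 difference was 0.62 (SE 0.20, 95% interval 0.21 to 1.04, adjusted p = 0.0360 with limma). Notch2, the receptor of the nephron's proximal fate, read 19.9, 18.5, 20.6 and 8.82 in the same order of groups, under the floor on all 4 arrays. A difference in Notch2 was not detectable with this probe set.

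Bmp7 and Bmp4 encode bone morphogenetic proteins, secreted ligands that signal through Smad proteins. Bmp7, which keeps nephron progenitors alive, read 354.2 in SHR nicotine, 384.2 in SHR saline, 475.8 in BN nicotine and 455.2 in BN saline. Both SHR arrays were below both BN arrays, with a log2 difference of -0.34 (SE 0.09, 95% interval -0.52 to -0.15, adjusted p = 0.0117 with limma). This gap was 1.18-fold under saline and 1.34-fold under nicotine. Bmp4, which restrains budding along the ureter, read 192.2, 178.4, 171.1 and 158.8 in the same order. The SHR arrays were again apart from the BN arrays, but the log2 difference of 0.17 (SE 0.12, 95% interval -0.09 to 0.42, adjusted p = 0.375 with limma) did not pass.

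Among the transcription factors no strain difference passed. Pax8, a paired-box factor of the early nephron epithelium, read 254.3, 219.6, 218.0 and 221.5 in the same order. The SHR nicotine array stood above the other 3, which lay within a few units of each other, and the log2 strain difference was 0.10 (SE 0.11, 95% interval -0.13 to 0.34). Hnf4a, a nuclear receptor that keeps the proximal tubule differentiated, had the narrowest readings of all: 1382496_at read 253.1, 255.9, 260.2 and 264.4, a spread of 1.04-fold from lowest to highest. Its other probe set, 1369289_at, read 409.0, 476.6, 442.5 and 437.0, with SHR arrays at both ends. The SHR readings of 1382496_at lay below the BN readings. The log2 strain differences were -0.04 (95% interval -0.26 to 0.17) and 0.0059 (95% interval -0.18 to 0.19).

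Wt1, the zinc-finger factor of podocytes, was read dimly by both of its probe sets. 1377223_at read 65.9, 58.4, 55.6 and 66.7, between the floor and the limit, with the strains overlapping. 1369695_at read 24.3, 29.3, 20.1 and 22.2, under the floor on all 4 arrays. Wt1 marks a small share of kidney cells, and whole-kidney RNA read with these probe sets gave no usable comparison for it.

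Of all 7037 tested probe sets, 1273 passed the strain test, which is 18.1%: 8.67% higher and 9.42% lower in SHR. Here 3 of 7 tested probe sets passed, 2 higher and 1 lower, and both that were higher entered only through the SHR arrays. In 5 of the 7 the strains did not overlap, as in 59.8% of all tested probe sets, so that count is near the background. Counted by size alone, 2 of the 7 measured probe sets were at least 1.5-fold apart between strains under saline, against 8.12% of all measured probe sets, and 1 of 7 was under nicotine, against 8.44%. For beta-actin, signal near the 3' end over signal near the 5' end, a ratio that rises as RNA degrades, was 1.34 and 1.39 in SHR and 1.49 and 1.54 in BN; its part in these differences was not tested. For Gapdh the same ratio was 1.11 and 1.002 in SHR and 1.09 and 1.07 in BN, and there the strains overlapped.

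**Figure D2:**
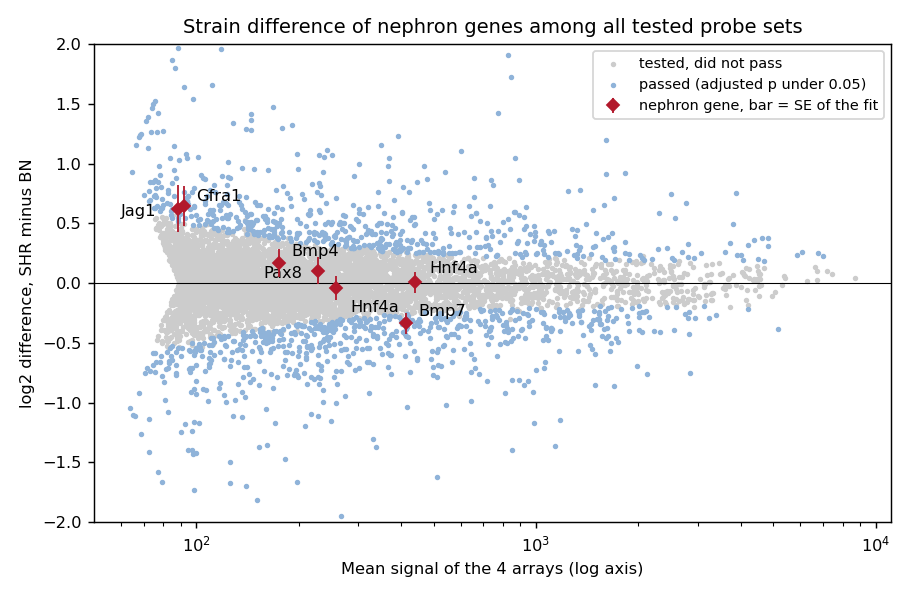
Log2 difference SHR minus BN (vertical) against the mean signal of the 4 arrays (horizontal log axis) for all 7037 tested probe sets, with 23 beyond the axis left out of view. Red diamonds with SE bars are the 7 tested probe sets of the nephron genes: Gfra1 and Jag1 lie at 0.64 and 0.62 at the dim end, Bmp7 at -0.34, and Bmp4, Pax8 and both Hnf4a probe sets among the points that did not pass.

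How firmly these calls hold can be read from other ways of fitting the same arrays. The direction of Gfra1, Jag1 and Bmp7 was the same in every alternative that gave a value. In all 3 the strains did not overlap, so leaving out 1 array could not turn the direction. The call was kept in 4 of 11 alternatives for Gfra1, 6 of 12 for Bmp7 and 1 of 11 for Jag1. Leaving out an array meant a model with strain alone, in which all 4 arrays gave adjusted p = 0.0182 for Gfra1, 0.0246 for Bmp7 and 0.0790 for Jag1 with limma. Leaving out the arrays 1 at a time, in the same order, the adjusted p with limma was 0.0582, 0.0657, 0.102 and 0.0746 for Gfra1. It was 0.101, 0.0446, 0.179 and 0.113 for Bmp7. For Jag1 it was 0.0927, 0.276, 0.0869 and 0.323, and the Jag1 log2 difference ranged from 0.40 without BN saline to 0.84 without BN nicotine. With no filter on dim probe sets, where 0 of 15866 passed with limma and 1719 had an unadjusted p under 0.05, none of the 3 passed.

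For prenatal nicotine, the treatment of the series, no difference in these genes passed the test. Averaged over strains, the log2 difference nicotine minus saline was 0.11 for Bmp4 (SE 0.12), 0.09 for Pax8 (SE 0.11), 0.03 for Jag1 (SE 0.20; direction fixed by the limit), -0.03 for Bmp7 (SE 0.09) and -0.05 for Gfra1 (SE 0.17). For Hnf4a it was -0.10 at 1369289_at (SE 0.09) and -0.02 at 1382496_at (SE 0.10). The adjusted p with limma was 0.998 for all 7 probe sets, and 0 of them had an unadjusted p under 0.05. Of all 6924 probe sets tested for nicotine, 0 passed with limma, which is 0%, and 376 had an unadjusted p under 0.05; 1 and 12 passed with the floor at the 20th and 60th percentile. The 95% intervals still allow differences: from -0.21 to 0.16 for Bmp7, from -0.29 to 0.09 for Hnf4a 1369289_at, and from -0.40 to 0.46 for Jag1.

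Within each strain, 1 pool was set against 1 pool and no test was possible. In SHR, 0 of 7 measured probe sets were at least 1.5-fold apart between nicotine and saline, against 1.98% of all measured probe sets, and in BN 0 of 5, against 1.63%. The SHR pools were closest for Gfra1 and for Hnf4a 1382496_at, at -0.03 and -0.02 on the log2 scale, and their BN values were -0.07 and -0.02, with both Gfra1 readings in BN below the limit. Over the 7 tested probe sets the ratios had the same sign in both strains for 3 and opposite signs for 4. Bmp4 was 0.11 higher on the log2 scale under nicotine in each strain. Pax8 stood at 0.21 in SHR and -0.02 in BN, and Hnf4a 1369289_at at -0.22 in SHR and 0.02 in BN. The SD of the log2 ratio over all measured probe sets was 0.21 in SHR and 0.20 in BN, so these ratios are about as large as that scatter or smaller.

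Jag1 had the largest nicotine ratios of the 7 tested probe sets, and they ran in opposite directions. Under nicotine its signal was lower in SHR, by 1.30-fold, and higher in BN, by 1.36-fold (log2 -0.37 and 0.44). The BN readings of 83.2 and 61.2 both lie below the limit for a measured probe set. Whether the response differs between strains was not tested, since the design leaves no degree of freedom for it.

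**Figure D3:**
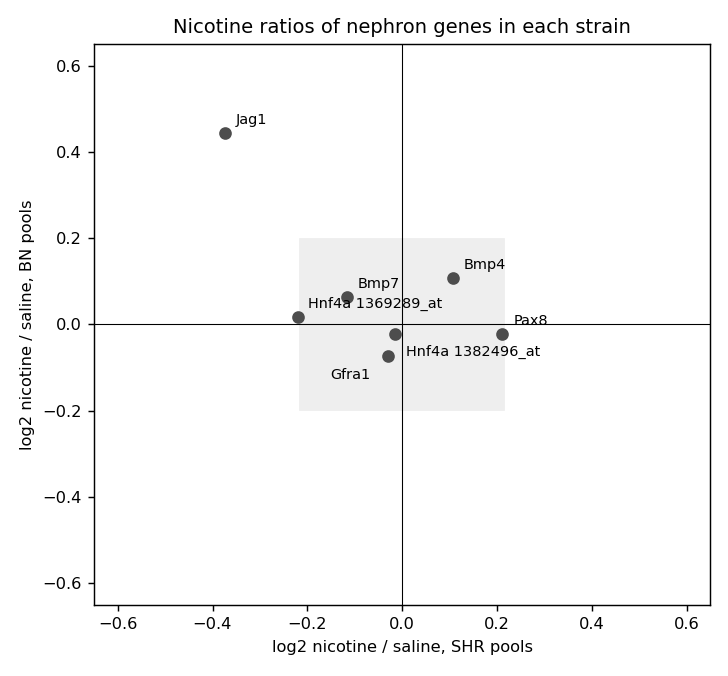
Log2 ratio of nicotine to saline in the BN pools (vertical) against that in the SHR pools (horizontal); each point is 1 probe set. The grey box spans 1 SD of all measured probe sets to each side, 0.21 in SHR and 0.20 in BN; Jag1 is outside it at -0.37 and 0.44, and the Hnf4a probe set 1369289_at lies at its left edge.

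The wider pathways of these genes were described with lists of known components, counted by probe set. A list's share is set beside the 18.1% of all tested probe sets and its median beside the median of all tested probe sets, 0.0024 on the log2 scale. For GDNF and Ret signalling, 18 of 25 genes were on the array and 4 probe sets could be tested. Gfra1 was the single probe set that passed, and with any 1 array left out 0 passed. Gdnf, the ligand, read from 5.04 to 9.68 and the 3 probe sets of Ret read from 0.663 to 11.8, all under the floor. Neither could be compared between groups. Pspn, which encodes the GDNF-family ligand persephin, had the largest nicotine difference of the list, -0.27 (SE 0.21, adjusted p = 0.998 with limma), at -0.73 in SHR and 0.19 in BN. The BMP antagonist Grem1 followed with -0.11 (SE 0.18). Both reached the limit only through the saline arrays, so each had to be lower under nicotine to be tested.

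For Notch signalling, 10 probe sets of 10 genes were tested and 1 passed the strain test, Jag1, and with any 1 array left out 0 did. The target gene Hes1 read 115.5 and 119.3 in SHR nicotine and saline against 109.9 and 102.8 in BN, with a log2 strain difference of 0.14 (SE 0.15) that did not pass. The list's median was -0.0094. Ncstn, which encodes the gamma-secretase subunit nicastrin, had the largest nicotine difference, 0.34 (SE 0.13, adjusted p = 0.735 with limma), reading 199.0 against 135.6 in SHR and 213.4 against 196.0 in BN. Notch1 had a nicotine difference of 0.24 (SE 0.20) and read 105.4 against 71.7 in SHR but 77.9 against 81.6 in BN. It reached the limit only through the nicotine arrays and had to be higher under nicotine to be tested.

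In BMP signalling, 7 of 20 tested probe sets, of 16 genes, passed the strain test, which is 35%: 6 were higher in SHR, and the 1 that was lower was Bmp7 itself. The list's median was 0.14. The Id genes, inhibitors of differentiation that are direct targets of BMP and Smad signalling, made up 4 of the 6. At 1368870_at, Id2 read 549.7 and 479.2 in SHR and 319.5 and 212.8 in BN, a 1.97-fold strain difference (log2 0.98, SE 0.10, adjusted p = 1.16e-06 with limma).

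Id3 and Id1 were also higher in SHR, by log2 0.33 (SE 0.09) and 0.29 (SE 0.09). Id4 was 1.49-fold higher at 1375183_at. Smad6, an inhibitory Smad that BMP signalling induces, was 1.68-fold higher in SHR, at 94.0 and 122.8 against 79.7 and 51.2 with nicotine first; it reached the limit only through SHR. Sostdc1, a secreted BMP and Wnt antagonist of the distal tubule, was 1.43-fold higher, at 898.8 and 1011.4 against 656.5 and 678.5 (log2 0.51, SE 0.07, adjusted p = 6.21e-05 with limma).

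Probe sets of the same Id gene disagreed, however. The other Id2 probe set, 1375532_at, read 1904.1, 2035.1, 2114.0 and 1878.9, with a log2 strain difference of -0.02 (SE 0.07). The other Id4 probe set, 1375120_at, stood at -0.24 (SE 0.10, adjusted p = 0.120 with limma), opposite to the one that passed. The receptor gene Bmpr1a and the signal carriers Smad1, Smad4 and Smad5 did not pass, with log2 differences from -0.14 to 0.15.

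Among the probe sets of the BMP list, Id2 1368870_at and Id3 also had the largest nicotine differences, 0.39 (SE 0.10, adjusted p = 0.323 with limma) and 0.24 (SE 0.09, adjusted p = 0.631). Both were higher under nicotine in each strain: Id2 by log2 0.20 in SHR and 0.59 in BN, and Id3 by 0.14 and 0.34. Neither passed, except Id2 with the floor at the 60th percentile (adjusted p = 0.0454 with limma). The other Id2 probe set, 1375532_at, had a nicotine difference of 0.04, with -0.10 in SHR and 0.17 in BN. Both Id4 probe sets were lower under nicotine in each strain, with differences of -0.24 at 1375183_at and -0.10 at 1375120_at. Id1 stood at -0.02. Leaving out the arrays 1 at a time, in the order above, the number of BMP probe sets past the strain threshold was 1, 2, 2 and 3. Among all probe sets those fits gave 609, 603, 373 and 394. Smad6 kept its call in 1 of 11 alternatives, Id4 in 6 of 10, Id2 in 8 of 11 and Sostdc1 in 11 of 12.

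**Figure D4:**
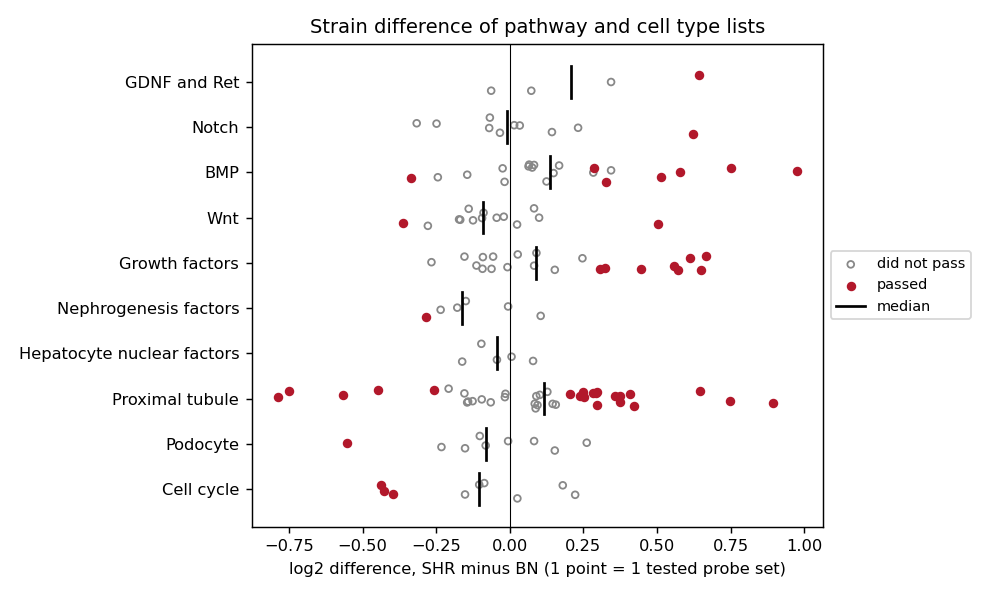
Log2 difference SHR minus BN for the tested probe sets of 10 lists (1 point each, filled red where the adjusted p was under 0.05; black bars are list medians). In the BMP row 6 filled points lie to the right of 0 and Bmp7 to the left; in the growth factor row all 8 filled points lie to the right.

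Among growth factors and their receptors, which act on kidney size in development and after, the strain differences that passed ran in 1 direction. Of 21 tested probe sets of 16 genes, 13 read higher in SHR, with a list median of 0.09. The test was passed by 8, which is 38.1%, all higher in SHR, and some of these belong to the same gene. Ccn2, a matricellular protein induced by TGF-beta, was 1.59-fold higher in SHR, at 604.8 and 612.3 against 343.6 and 428.3 with nicotine first. Igfbp3, the main carrier of insulin-like growth factors, was 1.53-fold higher at 1386881_at, and its other probe set and both probe sets of Igf2r, the scavenging receptor of Igf2, passed as well. Igf1 was 1.57-fold higher at 1370333_a_at, while its other probe set, 1388469_at, stood at -0.06 (SE 0.17).

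Pdgfa, a ligand for the cells of the vessel wall, was 1.49-fold higher in SHR, reached the limit only through SHR and kept its call in 1 of 11 alternatives. For the tubular growth factor Egf the log2 strain difference was -0.09 (SE 0.07) and did not pass. The largest nicotine differences were 0.27 for Igf1r (SE 0.11, adjusted p = 0.773 with limma) and 0.24 for Erbb3 (SE 0.14). With 1 array left out at a time, 4, 5, 3 and 4 probe sets of this list passed for strain.

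For Wnt signalling, which drives the first step from mesenchyme to epithelium, 2 of 14 tested probe sets passed, 14.3%. The receptor gene Fzd4 was 1.42-fold higher in SHR at 1376997_at, and its other probe set, 1369468_at, which reached the limit only through BN, stood at -0.28 (SE 0.19). The receptor gene Lgr4 was lower in SHR, by 1.29-fold, at 177.0 and 173.1 against 242.6 and 209.0. The call was kept in 9 of 12 alternatives for Fzd4 and in 2 of 12 for Lgr4. With 1 array left out at a time, 0, 1, 1 and 0 probe sets of the list passed. The list's largest nicotine differences were 0.14 for Csnk1a1 and 0.12 for Lgr4, and neither passed. The median strain difference of the list was -0.09.

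Other transcription factors of the developing nephron were mostly too dim in the adult kidney. Of 43 genes, 20 were on the array and 6 probe sets could be tested, among them Pax8. Pou3f3, a factor of the loop of Henle and distal tubule, passed, lower in SHR by 1.22-fold, at 258.3 and 276.9 against 326.0 and 325.4 (adjusted p = 0.0486 with limma), a call kept in 2 of 12 alternatives and lost with any 1 array left out. Mecom, Emx2, Hoxa11 and Tcf21 did not pass, with log2 differences from -0.24 to -0.0058; Hoxa11, the lowest, reached the limit only through BN. Lhx1, required for the nephron's first epithelium, stayed under the limit on all 4 arrays, and Wnt4 read from 2.29 to 11.3, under the floor. Emx2 had the largest nicotine difference of these, 0.12 (SE 0.16), followed by Pax8.

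Around Hnf4a, 0 of 5 tested probe sets of hepatocyte nuclear factors and partner receptors passed the strain test. Besides Hnf4a these were Nr1h4, the bile acid receptor, and Nr2f2, which binds the same DNA elements as Hnf4a. Nr2f2 had the list's largest nicotine difference, 0.17 at 1389554_at (SE 0.08, adjusted p = 0.920 with limma), ahead of Hnf4a at -0.10. Of the proximal tubule genes, many of which depend on Hnf4a, 21 of 38 tested probe sets passed, 55.3%, with 16 higher and 5 lower in SHR and a median of 0.11. The phosphate carrier gene Slc34a1 was 1.86-fold higher at 1370610_at, the aminopeptidase gene Anpep 1.68-fold higher and Apob, which reached the limit only through SHR, 1.57-fold higher. The other Slc34a1 probe set, 1368680_a_at, passed with a smaller log2 difference of 0.36, at 4922 and 5024 in SHR against 3872 and 3888 in BN, nicotine first. The imino acid carrier gene Slc6a20a was 1.73-fold lower.

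On the same arrays the Hnf4a probe sets differed between strains by log2 0.0059 and -0.04. With 1 array left out at a time, 14, 13, 8 and 8 of the proximal tubule probe sets passed. The sodium-proton exchanger gene Slc9a3 and Apob had the largest nicotine differences, -0.38 (SE 0.09, adjusted p = 0.263 with limma) and 0.69 (SE 0.18, adjusted p = 0.344). Neither passed, except Slc9a3 with the floor at the 60th percentile (adjusted p = 0.0304 with limma). Apob reached the limit only through the nicotine arrays, so its direction was fixed by that.

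In the podocyte list, which holds genes dependent on Wt1, 1 of 9 tested probe sets passed: Podxl, the sialomucin of the podocyte surface, lower in SHR by 1.47-fold, at 256.3 and 251.3 against 380.4 and 364.6. Podxl kept its call in 10 of 12 alternatives, and without BN nicotine 0 probe sets of the list passed; its other 2 probe sets were under the limit. The list's largest nicotine differences were -0.31 for Nes (SE 0.18) and 0.16 for Vegfa, and neither passed. Nes reached the limit only through the saline arrays and had to be lower under nicotine to be tested. In the cell cycle list 3 of 9 tested probe sets passed, 33.3%, and all 3 belong to the G1 cyclin gene Ccnd1, with log2 strain differences of -0.44, -0.43 and -0.40. Without SHR nicotine 1 of these probe sets passed, and with SHR saline, BN nicotine or BN saline left out 0 did. The proliferation markers Mki67 and Top2a stayed under the floor on all 4 arrays, at up to 11.5 and 35.9. Of the cell cycle genes, Ccnd1 and Rrm1 had the largest nicotine differences, -0.21 at 1371150_at and -0.13, and Rrm1 likewise reached the limit only through saline. The Ccnd1 probe sets differed in sign for nicotine, with 0.15 at 1371643_at (SE 0.08) and -0.15 at 1383075_at (SE 0.10), and none passed.

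Markers of kidney cell types were read on the same arrays. The summed signal of 8 proximal tubule marker probe sets was 17506 and 17755 in SHR and 15626 and 15846 in BN, nicotine first, and 6 of 8 passed the strain test, 5 higher in SHR and 1, Cubn, lower (-0.57). For 8 podocyte marker probe sets the sums were 922 and 931 against 1034 and 1079, and 1 of 3 tested passed, Podxl 1369895_s_at, whose own signals given above make up most of the gap. The podocyte marker Synpo read higher in SHR at 1387501_at, with 73.8 and 73.3 against 41.1 and 61.8, under the limit. Its tested probe set, 1388786_at, read lower in SHR, at 289.0 and 302.0 against 312.2 and 322.1 (log2 -0.10), and did not pass. Ptpro, at -0.23, did not pass either, and 0 of the 3 tested podocyte marker probe sets were higher in SHR. SHR pools read the thick limb carrier gene Slc12a1 at 531.5 and 515.0, below the 849.7 and 929.9 of the BN pools. Sums for its cell type ran the other way, 6286 and 6266 against 5462 and 5517, yet most of each sum was Umod. Umod passed, with 5256 and 5260 for SHR, 4076 and 4044 for BN (log2 0.37). Kcnj1 leaned lower in SHR (log2 -0.12) and did not pass. Endothelial markers were mixed. Vwf was lower, reading 42.7 and 40.8, under the floor, against 144.0 and 123.7. Kdr passed in the opposite direction (log2 0.32, adjusted p = 0.0106 with limma). Emcn (log2 0.12) and Pecam1 (log2 -0.19) did not pass. Endothelial sums overlapped between strains: 1307 and 1163 for the SHR pools, 1202 and 1161 for the BN pools. The immune cell marker sums were 3832 and 3307 against 2677 and 2416, and most of each was Lyz2 and Cd74. Lyz2 passed (log2 0.77) and Cd74 did not (log2 0.21, adjusted p = 0.0501 with limma). C1qa passed, higher in SHR (log2 0.91), and reached the limit only through SHR. Of the untested immune probe sets, Laptm5 and Cd3e read lower in SHR than in BN under each treatment, and the rest read higher. Among collecting duct markers 3 of 8 tested probe sets passed: Aqp2 (log2 -0.41) and Aqp3 (-0.30) lower in SHR, Scnn1g (0.47) higher. Among intercalated cell markers 2 of 5 passed, Car2 lower (-0.36) and Slc4a1 higher (0.42). Other probe sets of Scnn1g, Car2 and Slc4a1 leaned the same way and did not pass. Among distal convoluted tubule markers 1 of 2 passed, Slc12a3 (-0.32). For smooth muscle, mesangium and stroma it was 1 of 5, Col3a1 (0.72). The red blood cell marker Hbb did not pass. Markers of adipocytes, adrenal cortex and urothelium reached no testable level. In whole-kidney RNA, fewer cells of a type and less RNA per cell cannot be told apart, and the part of cell mixture in the strain differences was not tested.

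Genes with the profile most like each nephron gene past the strain threshold were found by the Euclidean distance between log2 profiles over the 4 arrays, each taken around its own mean. The nearest to Gfra1 were Prom1 at a distance of 0.027, Hspa5 at 0.032 and Aars1 at 0.050. Prom1, a membrane protein of progenitor and tubule cells, read 713.0 and 721.8 in SHR and 453.1 and 464.8 in BN, nicotine first. The nearest to Bmp7 were Cmas at 0.015, Zeb1 at 0.024 and Mmp24 at 0.027. For Jag1 the nearest profiles lay farther off: the protease gene Tmprss2 at 0.17, Fam81a at 0.19 and Slc38a2 at 0.20. Tmprss2 read 205.3 and 224.4 in SHR and 161.7 and 118.6 in BN, the same order of groups as Jag1. These were the nearest of 5231 candidate probe sets at or above the limit on all 4 arrays, a rule that Gfra1 and Jag1 themselves do not meet. Dimmer probe sets were thus not compared with them, and the distances are a description only.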

How the data were processed

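Total RNA was extracted with Trizol and pooled by group, and 4 arrays were hybridised, per the labels' protocols and the series' design text. The deposited intensity values were made by the authors with MAS5, per the submitters' processing notes. No source used here states the MAS5 settings. They had a common 2% trimmed mean of 150.0 and were used as deposited, without the 57 control probe sets. Of the other 15866, 12783 had 1 gene symbol, 312 several and 2771 none; symbols were updated through RefSeq gene identifiers. Between 58.9% and 60.7% reached the floor on each array.

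Strain and nicotine were fitted in limma 3.58.1 (R 4.3.3): an additive model, eBayes with an intensity trend, Benjamini-Hochberg adjustment over all tested probe sets and a threshold of 0.05. It leaves 1 residual degree of freedom, to which eBayes added 16.5 (strain) and 14.0 (nicotine) prior degrees from probe sets of like intensity. The SEs, intervals and p-values thus rest mostly on the spread of other probe sets and only in small part on a gene's own. This spread is between 4 pools, not between animals, and includes any nicotine response that differs between strains. The fit alone was tested on simulated data, with independent noise and no nicotine response that differs between strains. That test did not cover the limit that a probe set must reach to be tested. Means of groups are means of floored log2 values. The number of arrays limits the precision. The genes and lists were chosen with earlier results of these data known, and the motifs after the strain values were seen. Named are all probe sets of the nephron genes, for each list the 4 genes with the largest strain difference past the threshold and the 2 with the largest nicotine difference, and others as components of the same lists, chosen after their values were seen. Alternatives were other floors, no filter, quantile and cyclic loess normalization, no trend, 1 probe set a gene, 1 factor, and each array left out.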

Additional observations from a re-analysis of the deposited data

How the results depend on the processing

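The strain count of 1273 probe sets was 743 after quantile normalization, 830 after cyclic loess, 612 without the trend and 0 with no filter on dim probe sets, where 1719 had an unadjusted p under 0.05. It ranged from 373 to 609 with 1 array left out. The nicotine count of 0 with limma became 1 with the floor at the 20th percentile and 12 at the 60th. It was 0 in each fit with 1 array left out. No tested nephron gene was among those 1 and 12, which did include Id2 and Slc9a3 at the 60th percentile. For the nephron genes, 54 of 80 alternative strain values kept direction and call, 23 lost the call and 3 turned direction. Of 78 alternative nicotine values 70 kept both and 8 turned. All turns came from leaving out 1 array. The strain difference then ranged from -0.10 to 0.12 for Hnf4a 1369289_at and from -0.00085 to 0.21 for Pax8. The nicotine difference ranged as follows: for Bmp7 from -0.24 to 0.19, for Gfra1 from -0.38 to 0.28, for Hnf4a 1382496_at from -0.043 to 0.0044, for Jag1 from -0.48 to 0.55, for Pax8 from -0.016 to 0.21, and among list genes for Ccnd1 from -0.48 to 0.062, for Id2 from -0.19 to 0.98 and for Lgr4 from -0.10 to 0.35. In these fits the factor tested is the only term, so strain and nicotine are not balanced. With the floor at the 60th percentile Gfra1 and Jag1 were not tested. No paired analysis was possible because each group has 1 pool.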
